A study of Mus musculus with 7 samples.

Results

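The genes described here encode chemokines and their receptors, measured in cultures of 3T3-L1 fat cells grown with or without an inhibitor of stearoyl-CoA desaturase (SCD). They were chosen by symbol: every gene whose only annotated name starts with Ccl, Cxcl, Ccr or Cxcr and a number, together with Cx3cl1, Cx3cr1, Xcl1, Xcr1 and the atypical receptors Ackr1 to Ackr4. This gave 55 genes, 34 ligands and 21 receptors, of 18820 genes measured. 3T3-L1 is an established mouse line of fibroblast-like precursors that turns into fat-filled adipocytes under hormones. All cultures received isobutylmethylxanthine, dexamethasone and insulin for the induction and insulin afterwards. The 4 DMSO arrays are of cultures given solvent throughout, and the 3 SCD inhibitor arrays are of cultures given 1 µM of a commercial SCD inhibitor, which the sources used here do not name. RNA was taken on day 7. Dexamethasone, a glucocorticoid that represses many inflammatory genes, and insulin were thus shared by both groups. Nothing in the labels tells if the replicates were separate cultures, and the p-values therefore cover only the spread among these arrays, which may be technical.

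Chemokines are small secreted proteins that guide migrating cells, above all leukocytes, along gradients. They are named by the spacing of their first cysteines (C, CC, CXC and CX3C) and act on receptors coupled to inhibitory G proteins, while atypical receptors bind the ligands without that signal and remove them. In fat tissue, adipocytes and their precursors release several of them, and CCL2, the ligand of CCR2, is the best known attractant of monocytes into the fat of obese animals. Leukocytes, the cells in which most of the receptors act, are not part of the 3T3-L1 line.

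With the inhibitor, 5 ligands were called higher, Ccl2, Ccl7, Ccl5, Cxcl12 and Cxcl13, and no member was called lower. Ccl9 narrowly missed a call as lower (log2 difference -0.31, adjusted p = 0.0555 in limma). The increases of the 5 called ligands ran from 1.09-fold for Ccl5 to 1.61-fold for Cxcl13. Among all genes, 3.62% were called higher and 4.37% lower, so 5 higher members of 55 is above the share over all genes. The share of all genes called higher depended on the scaling: it was 5.94% (1117 genes higher and 943 lower) with the arrays centred on their median and 5.48% (1032 higher and 1032 lower) after a further quantile normalization, against 682 and 823 genes here, with 5 members higher each time. None of the 21 receptors passed the test or had an unadjusted p under 0.05. The threshold for a call was an adjusted p of 0.05 in limma, after Benjamini-Hochberg adjustment over all 18820 genes. At an unadjusted p under 0.05, 6 members were higher and 5 lower, and over all genes 21.9% lay under it in either direction. The median log2 difference was 0.0073 over the members and -0.0037 over all genes.

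Promoters of the ligands whose levels are described most closely below are shown first, where the RefSeq table (build GRCm38.p6) held them. They comprise Cxcl12 and Cxcl13, which rose, and Ccl9 and Cxcl1, which had negative differences that did not pass. The table held no promoter of Ccl2, Ccl5 or Ccl7, which also rose, so these were not searched for motifs. The promoters shown thus do not allow a comparison of members that rose with members that did not. Each sequence is the 250 bases before the annotated start, written 5′ to 3′ in the direction of the gene. The positions are chr6:117168285-117168534 on the plus strand for Cxcl12, chr5:95956689-95956938 on the plus strand for Cxcl13, chr11:83578637-83578886 on the minus strand for Ccl9 and chr5:90890995-90891244 on the plus strand for Cxcl1. Capitals mark matches on either strand to the TATA box (TATAAA), the GC box (GGGCGG) or the NF-kB consensus, the motif of the main inflammatory factor at chemokine genes.
Cxcl12: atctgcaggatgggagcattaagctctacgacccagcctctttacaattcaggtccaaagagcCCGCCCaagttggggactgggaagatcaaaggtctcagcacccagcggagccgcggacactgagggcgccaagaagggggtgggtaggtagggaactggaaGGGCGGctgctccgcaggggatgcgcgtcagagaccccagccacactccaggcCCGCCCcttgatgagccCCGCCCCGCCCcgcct
Cxcl13: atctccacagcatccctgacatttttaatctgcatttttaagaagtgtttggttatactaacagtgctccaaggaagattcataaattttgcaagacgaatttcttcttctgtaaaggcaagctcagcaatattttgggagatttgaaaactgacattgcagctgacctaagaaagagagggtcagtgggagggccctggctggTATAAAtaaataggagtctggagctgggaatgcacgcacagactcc
Ccl9: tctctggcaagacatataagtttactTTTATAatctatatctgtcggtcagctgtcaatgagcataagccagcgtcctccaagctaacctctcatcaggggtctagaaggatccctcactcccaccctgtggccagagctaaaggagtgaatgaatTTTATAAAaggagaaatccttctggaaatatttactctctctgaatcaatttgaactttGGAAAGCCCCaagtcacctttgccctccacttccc
Cxcl1: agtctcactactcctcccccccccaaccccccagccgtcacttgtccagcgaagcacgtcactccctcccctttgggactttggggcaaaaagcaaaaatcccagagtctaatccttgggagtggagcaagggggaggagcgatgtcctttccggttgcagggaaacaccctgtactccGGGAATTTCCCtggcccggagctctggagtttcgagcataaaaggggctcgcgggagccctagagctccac
The CCAAT box (CCAAT) was also searched and has no match in these 4. Cxcl12 held 5 GC boxes, the last 2 of them overlapping by a base, while Cxcl13 held 1 TATA box from 46 to 41 bases before the start. Cxcl1 held an NF-kB match from 71 to 62 bases before the start, which overlaps a match on the other strand, and Ccl9 held 1 from 35 to 26 bases before it. In Ccl9 the TATA box matched 3 times, and matches on opposite strands overlap. A promoter was found for 41 members, of which 11 held the NF-kB consensus, 13 the TATA box, 7 the GC box and 12 the CCAAT box. A member was counted for a motif if any of its promoters matched. Over all 32851 promoters of the table, some of which belong to the same gene, the shares were 7.25% for the NF-kB consensus, 12.4% for the TATA box, 32.7% for the GC box and 33.8% for the CCAAT box. These shares are per promoter and the member counts per gene, so they are not on the same basis. A match is only a description of the letters in the window.

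Among the CC ligands grouped here under CCR2 and CCR3, receptors of monocytes and eosinophils, 2 of 7 rose and 5 did not pass. The receptor use of each mouse ligand was not checked. Ccl2 had log2 levels of 5.63, 5.67, 5.55 and 5.69 in DMSO and of 6.01, 6.04 and 6.03 with the inhibitor. Its inhibitor arrays were all higher than its DMSO arrays, with a gap far wider than the spread within either group. The mean went from 5.63 ± 0.062 (SD, n = 4) to 6.03 ± 0.016 (SD, n = 3), a 1.31-fold rise (log2 0.39, SE 0.036, adjusted p = 0.00132 in limma). Ccl7, a monocyte attractant that also acts through CCR2, read 6.86, 6.68, 6.78 and 6.91 in DMSO and 7.10, 7.05 and 7.17 with the inhibitor. The groups did not overlap, and Ccl7 rose 1.23-fold (log2 0.30, SE 0.059, adjusted p = 0.0285 in limma). This call depended on single arrays: it ended without DMSO 1 (adjusted p = 0.0643), DMSO 3 (0.0902), SCD inhibitor 1 (0.0828), SCD inhibitor 2 (0.0626) or SCD inhibitor 3 (0.105), while the difference stayed between 0.26 and 0.33. Without both arrays numbered 1, its adjusted p was 0.152.

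Ccl2 and Ccl7 are next to each other on chromosome 11, where they open a run of 6 consecutive chemokine genes in RefSeq. The other 4 in the run did not pass. Ccl11, the eosinophil attractant eotaxin, was at 4.76, 4.82, 4.80 and 4.76 in DMSO and at 4.76, 4.76 and 4.68 with the inhibitor. The groups of Ccl11 overlapped, and its difference of -0.05 had a 95% interval from -0.12 to 0.02. The differences of Ccl12, Ccl8 and Ccl1 were 0.0019, 0.05 and -0.0062, at mean levels of 3.00, 3.32 and 3.92. Ccl24 (-0.01) and Ccl26 (0.02), further ligands of CCR3, lie on chromosome 5 and did not pass either.

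A further run of consecutive chemokine genes on chromosome 11 holds Ccl5, Ccl9, Ccl6, Ccl3 and Ccl4, inflammatory chemokines of which 1 of 5 rose. Ccl5, which attracts T cells and monocytes, read 4.99, 4.99, 4.92 and 5.01 in DMSO and 5.09, 5.09 and 5.12 with the inhibitor. Its groups were separate, but the rise was small, 1.09-fold (log2 0.12, SE 0.026, adjusted p = 0.0386 in limma). The call of Ccl5 ended without DMSO 1 (adjusted p = 0.0795), DMSO 2 (0.0832), DMSO 4 (0.0613), SCD inhibitor 1 (0.0789), SCD inhibitor 2 (0.0962) or SCD inhibitor 3 (0.122), and held without DMSO 3 (0.0413). Ccl9, a ligand of CCR1 in rodents, read 7.15, 7.18, 7.21 and 7.45 in DMSO and 6.91, 7.00 and 6.91 with the inhibitor. DMSO 4 was the highest array of Ccl9 and all inhibitor arrays were below all DMSO arrays. Its difference of -0.31 (SE 0.075, 95% interval -0.49 to -0.13) missed the threshold (adjusted p = 0.0555 in limma) and passed without DMSO 4 (-0.24, adjusted p = 0.0215). Ccl9 also passed after a further quantile normalization (adjusted p = 0.0179), with the arrays centred on their median (0.0325) and after removal of the dimmest 25% (0.0357) or 50% (0.0195) of genes.

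The remaining ligands of this run had smaller differences. Ccl6, another CCR1 ligand, read 5.967 to 5.997 in DMSO and 6.02 to 6.06 with the inhibitor. The groups of Ccl6 did not overlap, but its difference of 0.06 missed the threshold (adjusted p = 0.131 in limma). Ccl3 and Ccl4, the macrophage inflammatory proteins, had differences of 0.06 and -0.08 at mean levels of 3.27 and 3.90. Neighbouring genes of the run thus had differences of opposite sign, Ccl5 upward and Ccl9 downward, of which the first passed.

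**Figure D1:**
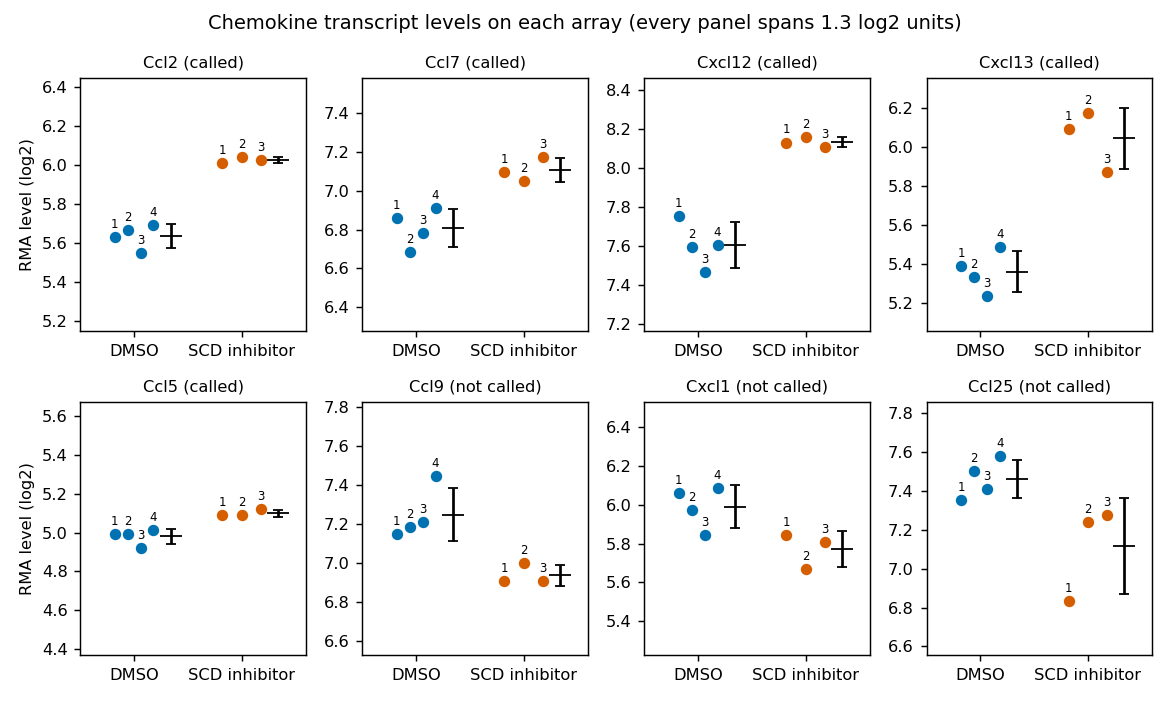
RMA levels (log2, vertical axis) of 8 chemokine genes on each array, with points numbered by replicate, blue for DMSO and orange for the SCD inhibitor; bars are the mean ± SD and each panel has its own range of equal width. Ccl2, Ccl7, Cxcl12, Cxcl13 and Ccl5 have all inhibitor points above all DMSO points, and SCD inhibitor 1 is the lowest array of Ccl25, at 6.83.

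The 2 members with the largest increases belong to the CXC group. Cxcl12, which holds blood stem cells and lymphocytes in place through CXCR4 and is made by stromal cells, read 7.75, 7.60, 7.46 and 7.60 in DMSO and 8.13, 8.16 and 8.11 with the inhibitor. The inhibitor arrays of Cxcl12 lay close together, and the lowest was well above the highest DMSO array. The rise was 1.44-fold, from 7.60 ± 0.12 (SD, n = 4) to 8.13 ± 0.024 (SD, n = 3), with log2 0.53, SE 0.063 and adjusted p = 0.00407 in limma. Cxcl13, which draws B cells to lymphoid follicles through CXCR5, read 5.39, 5.33, 5.23 and 5.49 in DMSO and 6.09, 6.17 and 5.87 with the inhibitor. SCD inhibitor 3 was the lowest of the treated arrays but still above every DMSO array. Cxcl13 rose 1.61-fold (log2 0.69, SE 0.087, adjusted p = 0.00508 in limma). Without both arrays numbered 1, the difference was 0.67 and did not pass (adjusted p = 0.0847). The receptors of these ligands did not pass: Cxcr4 read 4.01 on 6 arrays and 4.05 on SCD inhibitor 2, and Cxcr5 had a difference of -0.02 at a mean level of 3.29.

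Ccl2 and Cxcl12 kept their calls in all 17 alternatives tried, with adjusted p of up to 0.0394 and 0.0425. Their differences ranged from 0.36 to 0.41 for Ccl2 and from 0.48 to 0.58 for Cxcl12. Cxcl13 kept its call in 16 of the 17, Ccl7 in 11 of 17 and Ccl5 in 6 of the 16 in which it was measured. The number of members called higher was 3 without DMSO 1, SCD inhibitor 1, SCD inhibitor 2 or SCD inhibitor 3, each time Ccl2, Cxcl12 and Cxcl13. It was 2 without both arrays numbered 1, which had the lowest array weights in limma, at 0.583 and 0.499.

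**Figure D2:**
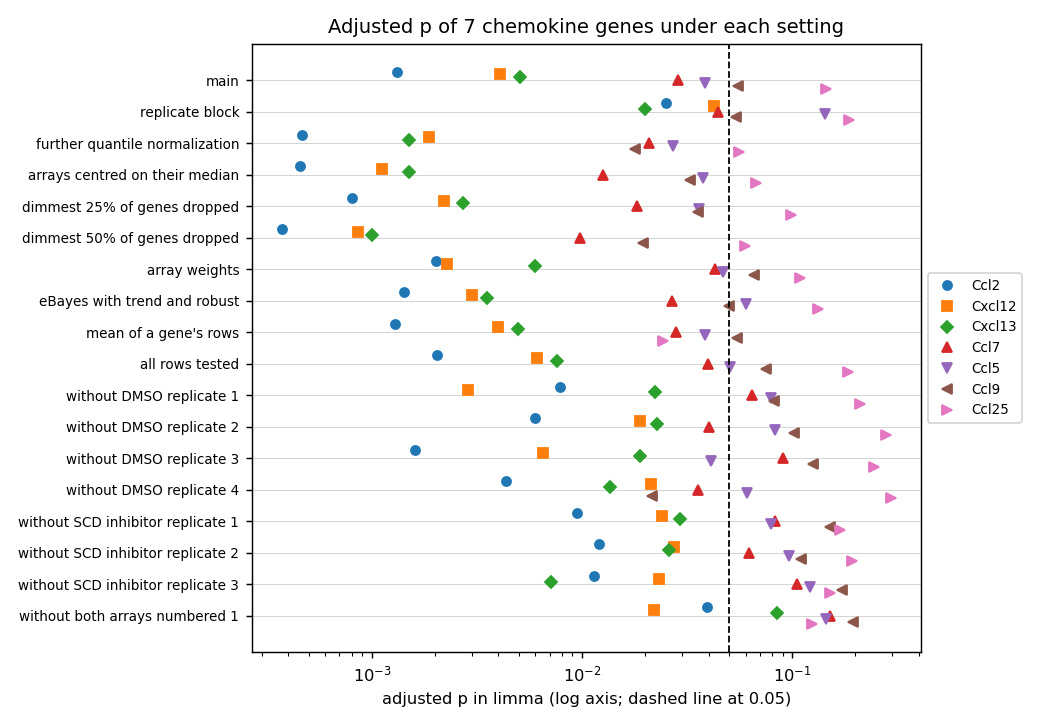
Adjusted p in limma (horizontal log axis, dashed line at 0.05) of 7 chemokine genes under the main setting and 17 alternatives (rows). Ccl2 and Cxcl12 lie left of the line in every row, whereas Ccl5, Ccl7 and Ccl9 cross it. Cxcl13 lies right of it only without both arrays numbered 1, and Ccl25 left of it only with the mean of a gene's rows.

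None of the 5 ligands of CXCR2, which recruit neutrophils, passed in limma, and 1, Cxcl1, had an unadjusted p under 0.05. Cxcl1, the mouse counterpart of the human GRO chemokines, read 6.06, 5.97, 5.84 and 6.09 in DMSO and 5.84, 5.67 and 5.81 with the inhibitor. DMSO 3 and SCD inhibitor 1 were level, and the difference of -0.22 (SE 0.070, 95% interval -0.38 to -0.05) did not pass (adjusted p = 0.129 in limma). Cxcl5 read 3.40, 3.39, 3.28 and 3.40 in DMSO and 3.41, 3.45 and 3.57 with the inhibitor, a difference of 0.11 (95% interval -0.01 to 0.23). The inhibitor arrays of Cxcl5 were higher than the DMSO arrays by a narrow margin and the gene did not pass (adjusted p = 0.271 in limma); without SCD inhibitor 3 the difference was 0.06. Cxcl2, Cxcl3 and Cxcl15 had differences of 0.0012, 0.01 and -0.04. Of the interferon-induced ligands of CXCR3, Cxcl10 read 5.05, 4.74, 4.898 and 4.99 in DMSO and 4.96 on all 3 inhibitor arrays. Cxcl10 (0.04, 95% interval -0.13 to 0.20), Cxcl9 (0.06) and Cxcl11 (-0.01) did not pass.

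Homing ligands of the CC group, which guide lymphocytes to lymphoid organs, gut and skin, gave no call in limma among 7 measured genes, of which 2, Ccl25 and Ccl17, had an unadjusted p under 0.05. Ccl25, a ligand of CCR9 made in thymus and gut, read 7.35, 7.501, 7.41 and 7.58 in DMSO and 6.83, 7.24 and 7.28 with the inhibitor. SCD inhibitor 1 was far below the other treated arrays, and the difference of -0.34 (SE 0.12, 95% interval -0.62 to -0.07) did not pass (adjusted p = 0.145 in limma). Without SCD inhibitor 1, Ccl25 had a difference of -0.20. A dimmer row of Ccl25 had a difference of -0.17 (SE 0.058, adjusted p = 0.199 over all rows), and the mean of both rows passed (-0.25, adjusted p = 0.0244). Ccl28, a mucosal ligand of CCR10, read 4.14, 4.30, 4.30 and 4.27 in DMSO and 4.30, 4.35 and 4.39 with the inhibitor (difference 0.09, adjusted p = 0.297 in limma). DMSO 1 was the lowest array of Ccl28, and without it the difference was 0.06. Ccl17 (-0.09), Ccl19 (0.02), Ccl20 (0.04), Ccl22 (-0.02) and Ccl1 did not pass. Ccl19, the only member besides Ccl25 with more than 1 row, had differences between -0.0088 and 0.0015 in its other rows.

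Other ligands did not pass. Cx3cl1, or fractalkine, a membrane-anchored ligand that can be shed, read 7.57, 7.48, 7.56 and 7.45 in DMSO and 7.29, 7.45 and 7.40 with the inhibitor. DMSO 4 and SCD inhibitor 2 were level at 7.45, and the difference of -0.13 (95% interval -0.25 to -0.02) had an adjusted p of 0.17 in limma. Without SCD inhibitor 1, the difference of Cx3cl1 was -0.09. Cxcl14 read 3.84 to 3.89 in DMSO and 3.70 to 3.85 with the inhibitor (difference -0.06, and -0.0099 without SCD inhibitor 1). Cxcl16, another membrane-anchored chemokine, read 3.31 to 3.36 in DMSO and 3.27 to 3.40 with the inhibitor (difference 0.0070, 95% interval -0.08 to 0.09). Cxcl17 and Xcl1 had differences of -0.02 and 0.01.

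Across the 21 receptors the differences ran only from -0.08 for Ccr6 to 0.07 for Ccr8, and the groups overlapped for each of them. The receptor of Ccl2, Ccr2, read 3.12, 3.17, 3.25 and 3.17 in DMSO and 3.14, 3.18 and 3.17 with the inhibitor (difference -0.02, 95% interval -0.10 to 0.07). Cxcr2 read 2.94, 2.94, 2.97 and 2.94 in DMSO and 2.94, 2.95 and 2.93 with the inhibitor. Ackr3, an atypical receptor that removes CXCL12, read 3.94 on each DMSO array and 3.94, 4.02 and 3.91 with the inhibitor (difference 0.01, 95% interval -0.05 to 0.08). The differences of Ackr1 and Ackr2 were -0.01 and 0.03. Ackr4 shares its row with a neighbouring gene and is given in the closing section.

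**Figure D3:**
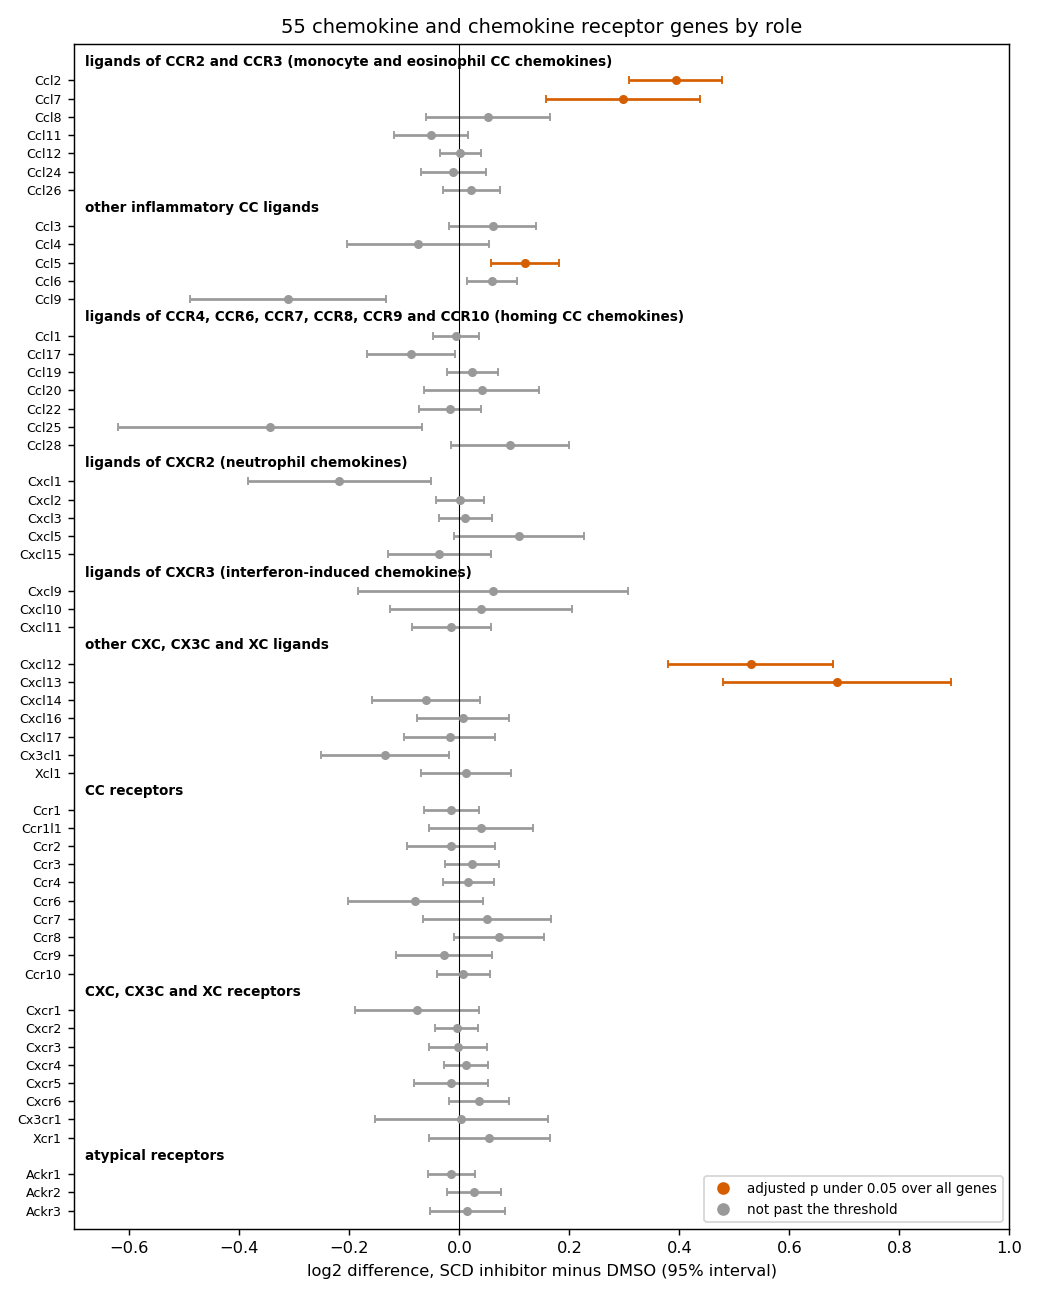
Difference in log2 level, SCD inhibitor minus DMSO (horizontal axis, points with 95% interval), for the 55 members by role; orange marks an adjusted p under 0.05 over all genes. The orange points are the 5 ligands Ccl2, Ccl7, Ccl5, Cxcl12 and Cxcl13, while all 21 receptors lie between -0.08 and 0.07.

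Many members were dim, and no detection calls were used here. As a reference for dim signals, 95% of 990 olfactory receptor genes, a family known mainly from the nose, had mean levels of up to 4.10. By that mark 24 members were above and 31 at or below it, counting 19 ligands and 5 receptors (Ccr7, Ccr10, Cxcr1, Cxcr3 and Cx3cr1) above. Probes differ in how strongly they bind, so the mark does not say whether a gene was expressed. All 5 called members were above it. Of all 12742 genes above the mark, 5.30% were called higher and 6.40% lower, and of the 6078 genes at or below it 0.230% were called in either direction. For 38 of the 55 members, the same value was stored on 3 or more arrays, against 54.6% of all genes. None of the 5 called members was among the 38.

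**Figure D4:**
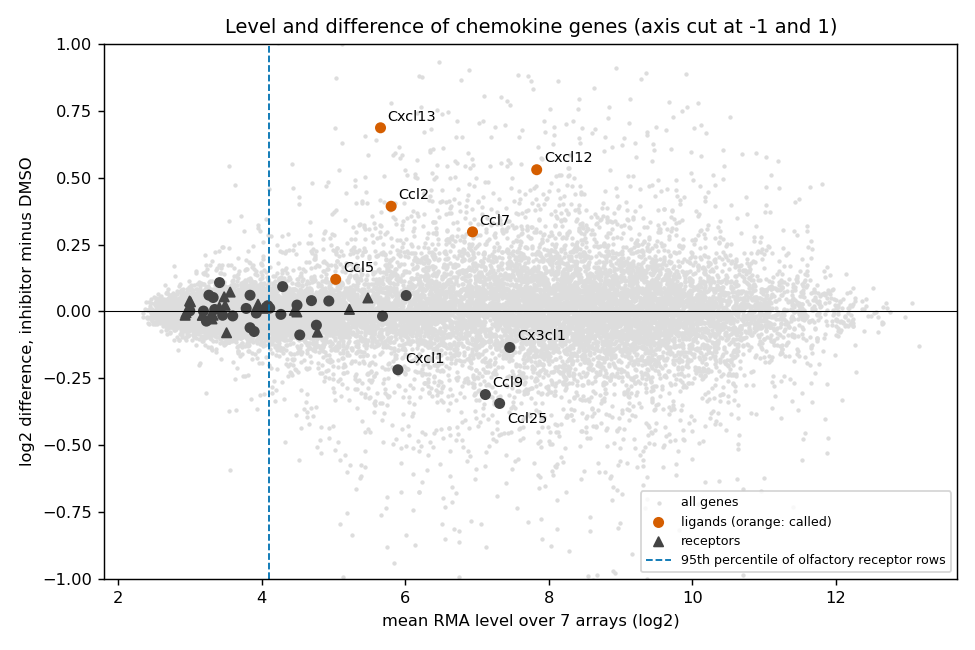
Mean RMA level over the 7 arrays (log2, horizontal axis) against the log2 difference, inhibitor minus DMSO (vertical axis, cut at -1 and 1), with all genes in grey, ligands as circles, receptors as triangles and called members in orange. The dashed line is the 95th percentile of olfactory receptor genes at 4.10, and the 5 called members all lie to its right.

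Groups that did not overlap were found for 9 members. The inhibitor arrays were wholly above the DMSO arrays for 7 (the 5 called genes, Ccl6 and Cxcl5), against 8.30% of all genes, and wholly below for 2 (Ccl9 and Ccl25), against 9.02%.

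Genes that work with chemokines were taken as 5 lists with 107 measured genes. Of these, 10 rose and 7 fell. Over all genes 3.62% were called higher and 4.37% lower, and over genes above the dim mark 5.30% and 6.40%. The counts of each list below are to be read beside these shares. Among 17 genes of ligand presentation and cleavage, 4 rose and 2 fell, with a median of 0.03. Chemokines are held on heparan sulfate chains of cell-surface proteoglycans, and 2 such core proteins rose, the glypican Gpc6 (0.79, SE 0.13) and the syndecan Sdc3 (0.47, SE 0.067). Gpc6 read 6.74 on DMSO 1 and 7.09 to 7.31 on the other DMSO arrays. Its call was lost, with adjusted p of 0.0505 to 0.0554 in limma, when DMSO 4, SCD inhibitor 1, SCD inhibitor 2 or SCD inhibitor 3 was left out. Ext1, which extends heparan sulfate, rose by 0.34 (SE 0.044), and Mmp2, a matrix protease that can cleave chemokines such as CXCL12, rose by 0.58 (SE 0.043, adjusted p = 5.63e-04 in limma). Sdc4 (-0.24, SE 0.025) and Gpc4 (-0.24, SE 0.041) fell. Dpp4, a protease that trims several chemokines, had a difference of -0.04.

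Of 32 genes of receptor signalling and its shut-off, 1 rose and 2 fell. Plcb4, a phospholipase C that G proteins activate, fell by 0.60 (SE 0.047), Rgs2, which speeds the switching off of G proteins, fell by 0.26 (SE 0.036) and Ptk2b, a kinase activated by calcium, rose by 0.26 (SE 0.032). Among 9 chemokine-like genes outside the rule, 1 rose and 2 fell. Cmtm3, of a family with similarity to chemokines, rose from 9.75 ± 0.13 (SD, n = 4) to 10.53 ± 0.012 (SD, n = 3) (0.78, SE 0.070), while Cd74, a surface receptor of the cytokine MIF, fell from 4.99 ± 0.11 to 4.48 ± 0.088 (-0.51, SE 0.069). Mif fell by 0.20 (SE 0.042, adjusted p = 0.0365 in limma), and of the fits without 1 array its call held only in that without SCD inhibitor 1. In the other 6, without any 1 of DMSO 1 to 4, SCD inhibitor 2 or SCD inhibitor 3, its adjusted p was 0.075 to 0.104.

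Of 26 cytokines that induce chemokines, their receptors and adaptors, 2 rose and 1 fell. Il1r1, the interleukin-1 receptor, rose by 0.44 (SE 0.074, adjusted p = 0.0155 in limma). It missed the threshold when DMSO 3 (adjusted p = 0.0555) or SCD inhibitor 3 (0.0541) was left out. Tlr2, a receptor of bacterial lipoproteins, rose by 0.44 (SE 0.092, adjusted p = 0.0329), and of the fits without 1 array its call held only in that without DMSO 4, with adjusted p of 0.0502 to 0.124 without any 1 of DMSO 1 to 3 or SCD inhibitor 1 to 3. Il17rc, a subunit of the interleukin-17 receptor, fell by 0.33 (SE 0.041). The inducing cytokines themselves did not pass: Tnf had a difference of -0.08 at a mean level of 3.54, Il1b one of -0.02 at 3.60 and Il6 one of -0.06 at 2.88. Among 23 transcription factors and feedback genes 2 rose, Jun by 0.19 (SE 0.038) and Rela, the NF-kB subunit p65, by 0.14 (SE 0.032). Of the fits without 1 array, both calls held only in that without DMSO 1: without any 1 of DMSO 2 to 4 or SCD inhibitor 1 to 3, the adjusted p in limma was 0.0637 to 0.0871 for Jun and 0.0752 to 0.142 for Rela. Nfkbia, which encodes the NF-kB inhibitor and is itself induced by NF-kB, had a difference of 0.15 that did not pass, and Tnfaip3, a further feedback inhibitor, had one of -0.0090.

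**Figure D5:**
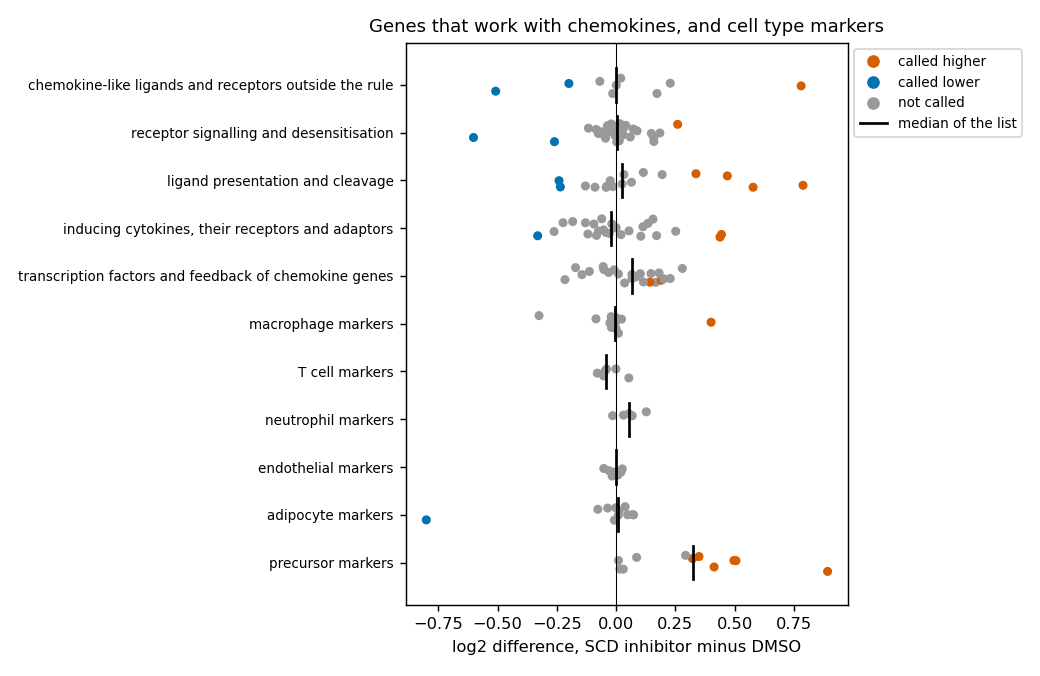
Difference in log2 level, SCD inhibitor minus DMSO (horizontal axis), of each gene of 5 lists of genes that work with chemokines and 6 lists of cell type markers (rows), with called genes in orange (higher) or blue (lower) and the median of each list as a bar. The median is 0.32 for the precursor markers and between -0.04 and 0.07 for the other 10 lists.

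Markers of other cells were measured beside these genes. Of 11 precursor markers, 6 rose and none fell, among them Pdgfra (0.89, SE 0.093) and Col3a1 (0.50, SE 0.042). The mean level of the precursor list was 8.30 to 8.39 on the DMSO arrays and 8.63 to 8.69 on the inhibitor arrays, and the log2 of its summed level was 13.36 to 13.47 and 13.70 to 13.73. It thus moved in the same direction as Ccl2, Ccl5, Ccl7, Cxcl12 and Cxcl13, and its part in their rise was not tested. Of 11 adipocyte markers, 1 fell, Slc2a4 (-0.80), and Adipoq (0.05) and Fabp4 (0.04) did not pass. The labels call the cells pre-adipocytes and the series design calls them adipocytes; Adipoq and Fabp4 were at mean levels of 12.39 and 12.35 in DMSO, and Lep at 4.83 over all arrays. The mean level of the adipocyte list was 11.20 to 11.26 in DMSO and 11.14 to 11.18 with the inhibitor, and without Slc2a4 the means of the other 10 were 11.29 to 11.32 and 11.27 to 11.33, which overlap. Plin1 (0.07) and Pparg (0.07) were wholly above DMSO and did not pass (adjusted p = 0.21 and 0.135 in limma). The log2 of the summed level of all 11 was 15.36 to 15.39 and 15.34 to 15.38. In bulk RNA, a different number of cells of a type and a different amount of RNA per cell cannot be told apart.

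Of 13 macrophage markers 1 rose, Fcer1g (0.40, SE 0.050), a chain of immunoglobulin receptors, and the mean of the list was 4.05 to 4.08 in DMSO and 4.04 to 4.08 with the inhibitor. In the macrophage list, 9 of the 13 differences were below 0. Lyz2, a lysozyme of myeloid cells, had the lowest (-0.33, SE 0.11), with all inhibitor arrays below all DMSO arrays, and did not pass (adjusted p = 0.146 in limma). The log2 of the summed level of the list was 8.01 to 8.08 and 7.995 to 8.05. Ptprc, the common leukocyte antigen CD45, and Adgre1, a surface protein of mouse macrophages, were at 4.09 and 3.12 in both groups. None of the 6 T cell, 5 neutrophil and 8 endothelial markers passed in limma, and none had an unadjusted p under 0.05. Over all genes, the correlation between arrays was 0.99902 to 0.99948 within a group and 0.99684 to 0.9975 between groups, and the number of arrays limits the precision.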

How the data were processed

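Transcript levels in 7 samples were measured on Affymetrix whole-transcript arrays from 100 ng of total RNA, per the labels' protocols. The deposited values are log2 levels of RMA, the method the authors used, per the submitters' processing notes. The sources used here give neither its version nor the array annotation. Of 28996 rows, 21218 had 1 gene symbol, and the row with the highest mean stood for a gene (18820 genes). Dim genes were kept. A single model of all arrays was fitted with limma 3.58.1 (lmFit, eBayes) in R 4.3.3 with 5 residual degrees of freedom, and genes were called at an adjusted p under 0.05. On simulated data for this comparison of 18820 genes, 90 of 100 genes changed by 0.5 and 98 of 100 changed by 1 (log2) were recovered, and 15 of the 203 genes called there were false. Changes under 0.5, the size of most member differences, were not simulated, so their recovery is not known.

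Named were all called members, the 6 others with the largest difference, 18 well-known members and up to 4 called genes of each partner list. Values are also given for further members, markers and cytokines. The members and lists were chosen with earlier results of these data known.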

Additional observations from a re-analysis of the deposited data

Results flagged for a closer look

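Among the 4 DMSO arrays, 4 members had 1 array far from the others by Dixon's ratio of the gap to the range, of 32 named genes tested. Chance marks about 1 group in 20 where values do not repeat. Stored values repeat among the DMSO arrays of Ccl28, Cxcl16 and Cxcr2, so that share need not apply to them. Cxcl5 was 3.28 on DMSO 3 and 3.39 to 3.40 on the others (ratio 0.864). Ccl28 was 4.14 on DMSO 1 and 4.27 to 4.30 on the others (0.859). Cxcl16 was 3.31 on DMSO 1 and 3.35 to 3.36 on the others (0.919). Cxcr2 was 2.97 on DMSO 3 and 2.94 on the others (1.00). None of the 4 genes was called.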

How the results depend on the processing

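The 17 alternatives were a block for the replicate number, quantile normalization, centring, dropping the dimmest 25% or 50% of genes, array weights, trend and robust options, the mean of a gene's rows, all rows tested, each array left out and both arrays numbered 1 left out. For the 19 named members, 285 of 308 results kept their side of the threshold, 17 lost a call and 6 gained 1. No called gene changed sign, but 9 results of 5 uncalled members did (Cxcl10, Cxcl16, Ccr2, Cxcr2 and Ackr3), with differences between -0.02 and 0.04. For the 15 named partner genes, 205 of 253 kept their side, 48 lost a call and none changed sign.

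Numbers shared by the groups gave correlations of deviations of 0.174, 0.138 and 0.0796, and each of the 6 arrays correlated best with its own number. The main model did not pair the arrays. Its p-values therefore take no account of a link between arrays of the same number, and the source of such a link was not tested. With the replicate block 896 genes were called in place of 1505, 6 partner genes higher and 3 lower, and 4 members higher, Ccl5 losing its call (adjusted p = 0.143 in limma). DMSO 4 has no inhibitor array of its number, so in the block fit it did not contribute to the differences. The differences of the named genes were the same as in the unpaired fit without DMSO 4. That fit called 980 genes and 4 members higher, with an adjusted p of 0.0613 in limma for Ccl5. The change from 1505 to 896 thus combines the loss of DMSO 4 with the pairing.

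The member called lower was 1 in place of 0 after quantile normalization, centring or dropping the dimmest 25% or 50% of genes (Ccl9 each time) and with the mean of a gene's rows (Ccl25). Over the fits without 1 array, members called higher ran from 3 to 4, members called lower from 0 to 1 (Ccl9), partner genes called higher from 6 to 10 and lower from 5 to 7, and genes called from 949 to 1294. Without both arrays numbered 1, 808 genes, 2 members and 6 partner genes higher were called. In limma, Ccl5 also lost its call with trend and robust options (adjusted p = 0.0601) and with all rows tested (0.0504). Of the named partner genes whose calls held without any 1 array, Cd74 (adjusted p = 0.0818) and Sdc3 (0.075) lost theirs without both arrays numbered 1, and Cd74 (0.0624), Rgs2 (0.0595) and Ptk2b (0.0739) with the replicate block. The causes were not tested. Signal near the dim mark limits what can be seen for most receptors.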

Other observations

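Rows that share a member's name with other genes were left out above. The row shared by Ackr4, an atypical receptor of CCR7 ligands, and Acad11 read 3.93, 3.91, 3.91 and 3.86 in DMSO and 3.75, 3.79 and 3.85 with the inhibitor. All its inhibitor arrays were below its DMSO arrays, and the difference of -0.11 (SE 0.029) missed the threshold (adjusted p = 0.12 in limma over all rows). The row shared by Cxcl16 and Zmynd15 had a difference of -0.04, and the row of Cxcl16 alone one of 0.0070. The rows of the Ccl21 copies held identical values and had a difference of -0.04. The 4 rows that include Ccl27a had differences between -0.03 and 0.03.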
